A study of Mus musculus with 4 samples.

Results

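The genes described here are 10 genes of the cyclic AMP and CREB pathway, out of 11742 genes tested, in mouse Beta-TC-6 cells with and without depletion of NF45. Of the 10, 7 are genes whose transcription CREB is known to drive: Nr4a1, Nr4a2, Nr4a3, Sik1, Ppargc1a, Crem and Per1. The other 3 encode the machinery itself: Creb1, Crtc1 and Crtc2. Members were taken by gene symbol, with the brightest probe set of each gene, and each of the 10 turned out to have 1 probe set with a single symbol. The list was chosen by looking at the siNF45 against siNTC differences of these same arrays, so the differences of the members are given as a description. No p-value is printed for a member, and the intervals of members are not read as tests. Counts or names of members past a threshold are given beside the counts or shares over all genes, with nothing read from them.

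Beta-TC-6 is an insulin-secreting mouse line derived from a pancreatic beta cell tumour. On 2 arrays the cells had received a negative control siRNA (siNTC), and on 2 they had received a mixture of 3 RNA duplexes against NF45 (siNF45). NF45, the product of Ilf2, forms a complex with NF90 that binds double-stranded RNA. Both groups carried a lipid transfection and were grown in medium with 25 mM glucose and 15% serum, with no cAMP-raising agent named in the labels. The labels do not say whether samples of a group were separate cultures, so the spread between them may be technical, and nothing is said about the time between transfection and harvest.

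Cyclic AMP activates protein kinase A, which phosphorylates the transcription factor CREB on DNA elements called cAMP response elements (CREs). A second input comes through the CRTC coactivators, which are held in the cytoplasm while phosphorylated by salt-inducible kinases (SIKs) and move to the nucleus to bind CREB after calcineurin removes the phosphate. In beta cells glucose, through calcium entry, and incretin hormones, through cAMP, use these inputs. Many CREB targets are immediate-early genes with short-lived mRNAs, and some, such as Sik1 and the Crem repressor ICER, feed back to shut the signal off.

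The sequence just upstream of these genes is shown because all 3 NR4A genes share a dense run of the CRE core. Promoter windows from RefSeq (GRCm38.p6) reached from 250 bases before to 50 bases after a start site. They are described for 7 members: Nr4a1, Nr4a2, Nr4a3, Ppargc1a, Per1, Creb1 and Crtc1. No window of Sik1, Crem or Crtc2 is described. The core searched was TGACG, which reads CGTCA on the opposite strand, and both were counted. The full palindrome TGACGTCA contains both of them overlapping and was searched separately. Capitals mark the core in either orientation, and each sequence is written 5′ to 3′ on the strand of its gene. The first 3 lines are the 250 bases before the start site, at chr15:101266596-101266845 on the plus strand for Nr4a1, chr2:57124004-57124253 on the minus strand for Nr4a2 and chr4:48045055-48045304 on the plus strand for Nr4a3. The last 2 lines are 41 bases around the core nearest the start site in Ppargc1a (chr5:51567752-51567792, minus strand) and Per1 (chr11:69100002-69100042, plus strand).
Nr4a1: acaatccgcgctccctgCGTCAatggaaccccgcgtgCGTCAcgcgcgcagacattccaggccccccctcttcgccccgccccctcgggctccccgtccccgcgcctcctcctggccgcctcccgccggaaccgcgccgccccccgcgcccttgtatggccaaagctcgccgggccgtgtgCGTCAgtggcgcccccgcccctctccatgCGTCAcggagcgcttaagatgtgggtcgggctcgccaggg
Nr4a2: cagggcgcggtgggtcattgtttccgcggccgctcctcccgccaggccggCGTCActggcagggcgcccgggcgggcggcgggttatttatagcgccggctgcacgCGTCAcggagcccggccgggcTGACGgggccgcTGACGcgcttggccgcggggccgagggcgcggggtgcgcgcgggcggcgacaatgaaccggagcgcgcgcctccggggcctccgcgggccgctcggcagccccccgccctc
Nr4a3: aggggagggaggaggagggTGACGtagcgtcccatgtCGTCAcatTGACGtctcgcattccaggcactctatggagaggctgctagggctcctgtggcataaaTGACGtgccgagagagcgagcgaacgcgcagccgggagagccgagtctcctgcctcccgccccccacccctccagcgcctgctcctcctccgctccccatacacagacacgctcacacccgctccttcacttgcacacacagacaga
Ppargc1a: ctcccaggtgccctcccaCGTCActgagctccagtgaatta
Per1: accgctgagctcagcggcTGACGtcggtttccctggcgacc

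Each of the 3 NR4A windows held 4 copies of the core, and 76 of 32851 promoter windows (0.231%) held 4 or more. In Nr4a1 the copies began 233, 213, 69 and 40 bases upstream of the start site, all in the CGTCA orientation. In Nr4a2 they began 200, 144, 123 and 111 bases upstream, and in Nr4a3 231, 213, 205 and 147 bases upstream. Ppargc1a had 1 copy, 49 bases upstream, and each of 2 Per1 windows had 1 copy, of which the one shown lies 132 bases upstream. Creb1 and Crtc1 had none in their windows. For comparison, 20.8% of all windows held at least 1 core. The full palindrome was in 1.79% of windows and in none of those of the 7 members.

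All 4 copies in Nr4a1 extend to TGCGTCA, or read from the opposite strand TGACGCA, a string looked for after the sequence was seen. That string occurred in 2.12% of windows, and Nr4a1 was the 1 window of 32851 that held 4 of them. A match is a description of letters and says nothing on whether CREB is bound there in these cells.

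**Figure D1:**
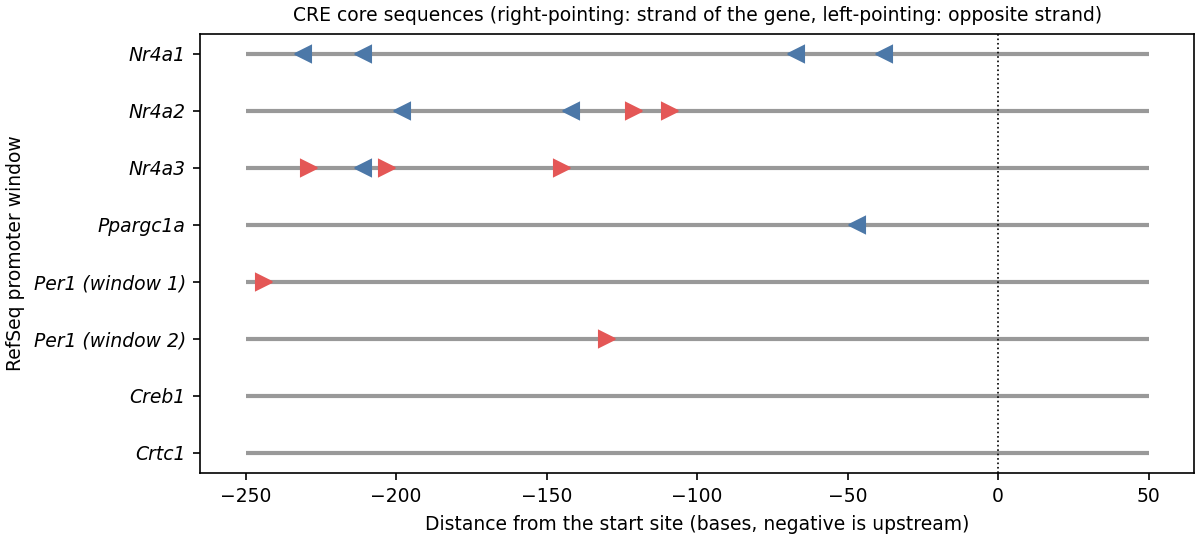
Position of each CRE core sequence (triangles, pointing right on the strand of the gene and left on the opposite strand) in the RefSeq promoter windows of 7 members, with distance from the start site in bases on the x axis and 1 line per window. The 3 NR4A genes carry 4 cores each, Ppargc1a and the Per1 windows 1 each, and Creb1 and Crtc1 none.

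The targeted gene and the cell type were checked first. Ilf2 read 5.79 and 5.98 in siNTC and 3.67 and 3.77 in siNF45, and fell by 2.17 on the log2 scale (SE 0.13, limma adjusted p = 0.020, exact permutation p = 0.333, the smallest that 2 against 2 arrays allow). The adjusted p was 0.258 with a replicate block, 0.328 without moderation and 0.307 to 0.471 without 1 array, with the difference between -2.26 and -2.07. Of 9 beta cell markers on the array, 8 passed the signal filter, from Slc2a2 near 5 to Iapp near 10, and Ucn3, a marker of mature beta cells, stayed at 0.90 to 1.38. Of 14 markers of cells outside the islet (acinar, duct, vessel, blood and connective tissue), 3 passed. Summed on the linear scale, those 14 came to 44.5 and 41.7 in siNTC and 48.2 and 48.8 in siNF45, and the 9 beta cell markers to 2783.4 and 2601.5 against 2751.6 and 2748.0. The duct keratin Krt7 made up most of the change in the former sum, at 3.41 and 3.13 in siNTC and 3.91 and 3.96 in siNF45. Of 3 alpha cell markers, Irx1 and Irx2 differed by -0.55 and -0.39 and Gcg by -0.02, and the PP cell marker Ppy by 0.52. The part of any of these in the members' values was not tested. Array medians over the tested genes were 3.82 and 3.76 in siNTC and 3.72 and 3.6 in siNF45. Each difference below is therefore set beside a median difference of -0.07 over the tested genes. Without the signal filter the median difference was -0.005 over 22180 genes, so the size of that shift depended on which genes were kept. A lower value in these cultures cannot separate fewer cells holding a transcript from less of it in each cell.

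All 7 CREB-responsive members read lower on both siNF45 arrays than on both siNTC arrays, with a median difference of -0.78 (log2, siNF45 minus siNTC) and a range from -2.11 for Nr4a1 to -0.32 for Crem. Among all tested genes 61.3% lay below 0, and 32.6% had both siNF45 arrays below both siNTC arrays. The 3 regulators had a median of -0.045 (-0.155 without siNTC replicate 2, 0.085 with arrays centred on their tested genes), with 2 below 0, 1 above and 1 without overlap. In the limma fit across all genes, with Benjamini-Hochberg adjustment at 0.05, 10 genes (0.0852%) were called and none of the 10 members was among them. At an unadjusted p under 0.05, 6 members were lower and none higher, where the shares over all genes were 13.2% lower and 4.02% higher. These counts come from the contrast that chose the members and nothing is read from them.

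**Figure D2:**
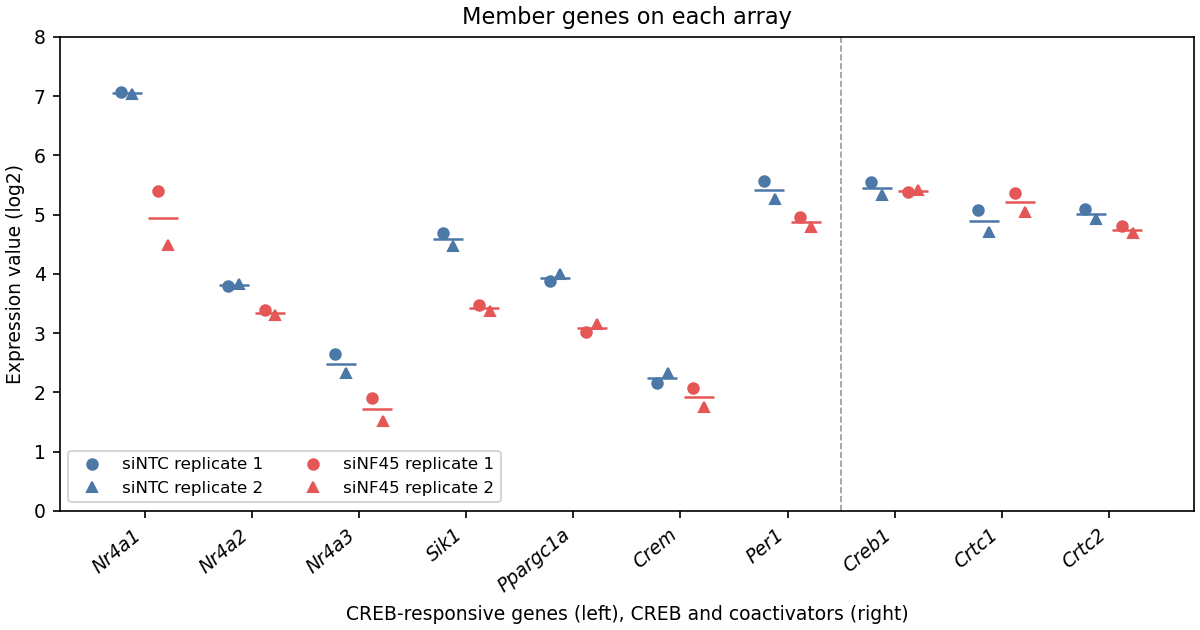
Expression value (log2) of the 10 member genes on each array, with circles for replicate 1, triangles for replicate 2 and short bars for the mean of 2 arrays. The 7 CREB-responsive genes left of the dashed line sit lower in siNF45 (red) than in siNTC (blue), by 2.11 for Nr4a1 and 0.32 for Crem, while Creb1 and Crtc1 overlap.

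The NR4A genes encode orphan nuclear receptors that are induced within minutes to hours of a cAMP or calcium signal. Nr4a1, also called Nur77, read 7.06 and 7.03 in siNTC and 5.39 and 4.48 in siNF45. Its controls lay within 0.03 of each other, while the siNF45 arrays were 0.91 apart and both well under the controls. The difference was -2.11 (SE 0.29, 95% interval -2.84 to -1.38), a 4.32-fold lower level, and stood 4th from the lowest among the 11742 tested genes. It was -1.66 without siNF45 replicate 2 and -2.57 without siNF45 replicate 1.

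Nr4a3, also called Nor1, read 2.64 and 2.33 in siNTC and 1.90 and 1.52 in siNF45, close to the dim end of the tested range, which began at 1.65. Its value on siNF45 replicate 2 lies under that level. The difference was -0.78 (SE 0.19, 95% interval -1.24 to -0.32), or 1.71-fold. The gap between the groups, 0.43, was a little wider than the 0.38 between the siNF45 arrays. Nr4a2, or Nurr1, a receptor best known from dopamine neurons, read 3.80 and 3.82 in siNTC and 3.39 and 3.30 in siNF45. Here both groups were tight, and the difference of -0.47 (SE 0.12, 95% interval -0.76 to -0.17), or 1.38-fold, was the smallest of the 3 receptors although its replicates agreed within 0.09. The 3 windows had the same core count while the differences ran from -0.47 to -2.11. The 3 genes were chosen from this contrast, so nothing is read from their shared direction.

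Sik1 encodes the salt-inducible kinase that CREB itself switches on and that returns CRTC proteins to the cytoplasm. It read 4.69 and 4.47 in siNTC and 3.47 and 3.37 in siNF45. The 2 siNF45 values were 0.10 apart and the nearest control stood 1.00 above them. The difference was -1.16 (SE 0.14, 95% interval -1.50 to -0.82), or 2.23-fold, the second largest of the members, and it ran from -1.27 to -1.03 over the alternatives.

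Ppargc1a encodes PGC-1α, a coactivator of genes for mitochondria and, in liver, for glucose production. It read 3.87 and 3.99 in siNTC and 3.02 and 3.15 in siNF45, with 0.72 between the nearest arrays of the groups. The difference was -0.85 (SE 0.13, 95% interval -1.16 to -0.53), or 1.80-fold. It was the 1 target that read higher on siNF45 replicate 2 than on replicate 1. The other 6 read lower on replicate 2, as did 7013 of the 11742 tested genes, and whether that array's general level had a part in their values was not tested.

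Per1, a repressor of the circadian clock that light and cAMP induce through CREB, read 5.56 and 5.27 in siNTC and 4.95 and 4.79 in siNF45. The groups were 0.32 apart at their nearest, a little more than the 0.29 between the controls, and the difference was -0.55 (SE 0.15, 95% interval -0.92 to -0.17), or 1.46-fold. Crem encodes activators and, from an internal promoter, the short repressor ICER, and its probe set does not tell these apart. It read 2.15 and 2.33 in siNTC and 2.08 and 1.76 in siNF45. The nearest arrays differed by 0.07, less than the spread inside either group, and the interval of its difference of -0.32 (SE 0.16, 95% interval -0.71 to 0.07) took in 0. It was -0.16 without siNF45 replicate 2, -0.48 without siNF45 replicate 1 and -0.19 with arrays centred on their tested genes. For Crem the gap between groups did not exceed the wider of its within-group ranges, the 0.32 between its siNF45 arrays.

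Creb1, the transcription factor itself, read 5.55 and 5.33 in siNTC and 5.38 and 5.41 in siNF45. Both siNF45 values lay between the controls, with a difference of -0.045 (SE 0.13, 95% interval -0.37 to 0.28) that turned to 0.085 when arrays were centred on their tested genes, to 0.012 after quantile normalization and to 0.065 without siNTC replicate 1, and was -0.155 without siNTC replicate 2. Crtc1, the coactivator most studied in brain, read 5.08 and 4.70 in siNTC and 5.36 and 5.05 in siNF45. The groups overlapped and the difference was 0.32 (SE 0.19, 95% interval -0.15 to 0.78). It was 0.125 without siNTC replicate 2, 0.505 without siNTC replicate 1 and 0.16 without siNF45 replicate 1. Crtc2, the CRTC known to carry glucose and incretin signals in beta cells and glucagon signals in liver, read 5.10 and 4.93 in siNTC and 4.80 and 4.69 in siNF45. These groups did not overlap, and the difference was -0.27 (SE 0.13, 95% interval -0.59 to 0.05), or -0.14 with centred arrays.

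Set side by side, the lowest difference among the regulators was -0.27 for Crtc2 and the one nearest 0 among the targets was -0.32 for Crem. That order did not hold in every fit that left out 1 array. Without siNF45 replicate 2 Crem was at -0.16 and Crtc2 at -0.215, and without siNTC replicate 2 they were at -0.23 and -0.355. The order held without siNF45 replicate 1, with Crem at -0.48 and Crtc2 at -0.325. It also held without siNTC replicate 1, with Per1 at -0.40, Crem at -0.41 and Crtc2 at -0.185. No test of targets against regulators was run, since both sets were picked from this contrast. An mRNA level does not report the phosphorylation or location of CREB and CRTC proteins, which were not measured.

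**Figure D3:**
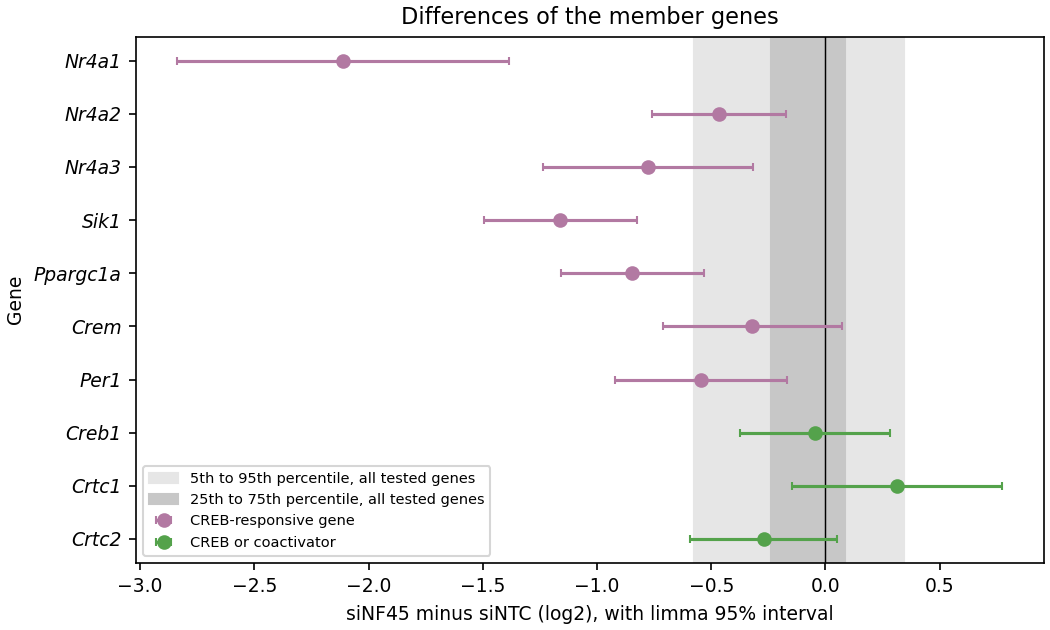
Difference siNF45 minus siNTC (log2, x axis) with its limma 95% interval for each member gene, CREB-responsive genes in purple and CREB and coactivators in green. Shading marks the 25th to 75th (-0.24 to 0.09) and 5th to 95th (-0.58 to 0.35) percentiles of 11742 tested genes. The differences of Nr4a1 (-2.11) and Sik1 (-1.16) lie farthest left. The intervals of the 3 regulators and of Crem cross 0, but the members were chosen from this contrast, so no interval is read as a test.

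The CRE core was not searched to choose the members, though 7 of them are known CREB targets. Its count was set beside the differences of all genes. Among 9235 tested genes with a promoter window the median difference was -0.07. It was -0.07 too in the 5921 genes with no core and in the 57 genes with 4 or more in a window, of which 3 are the NR4A genes. Genes below 0 made up 60.5% of the first set and 70.2% of the second, and genes with both siNF45 arrays below both controls 31.9% and 36.8%. The second set includes the 3 NR4A genes, chosen from this contrast and lower without overlap. Its shares are therefore not independent of that choice. In the 343 genes with the full palindrome the median was -0.06. These shares are descriptions over genes, which are not replicates.

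Other genes of the pathway were taken from lists of textbook members, drawn up with earlier results of these data known. The counts over these lists are therefore descriptions. Of 13 genes that bind CREB or control CRTC, 11 were tested and none was called at the adjusted threshold. They had a median of -0.20 beside -0.07 for all genes, with 8 below 0 and 3 above where 61.3% of all genes lay below. At an unadjusted p under 0.05, 2 of the 11 were lower and 0 higher, near the 13.2% and 4.02% over all genes. Sik2, a second CRTC kinase that is prominent in beta cells, read 5.19 and 5.0 in siNTC and 4.50 and 4.28 in siNF45, a difference of -0.71 (SE 0.14, limma adjusted p = 0.128). Camk4, a calcium-dependent CREB kinase, differed by -0.40 (SE 0.12, limma adjusted p = 0.199). The third coactivator, Crtc3, differed by -0.50 (SE 0.20, limma adjusted p = 0.290), and by -0.245 without siNTC replicate 1 and -0.755 without siNTC replicate 2. Stk11, the LKB1 kinase that activates SIKs, differed by -0.25 (SE 0.15, limma adjusted p = 0.453), and by -0.085 without siNF45 replicate 1 and -0.415 without siNF45 replicate 2. The histone acetyltransferase Crebbp, named after its values were seen, was flat at 7.19 and 7.14 against 7.16 and 7.19.

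Of 28 other genes known as CREB targets, 22 were tested, and none was called. Their median was -0.23, with 16 below 0 and 6 above, beside 61.3% below 0 over all genes. At an unadjusted p under 0.05, 9 of 22 were lower and 0 higher, where 13.2% and 4.02% of all genes were. Irs2, the insulin receptor substrate that CREB maintains in beta cells, read 6.94 and 6.69 in siNTC and 5.85 on both siNF45 arrays, a difference of -0.97 (SE 0.14, limma adjusted p = 0.079). Vgf, a precursor of secreted neuropeptides, read 5.93 and 5.96 in siNTC and 4.99 and 4.37 in siNF45, a difference of -1.27 (SE 0.22, limma adjusted p = 0.096). As for Nr4a1, its controls were nearly equal and siNF45 replicate 2 was the lowest array. Fosb, a subunit of the AP-1 factor, read 2.82 and 2.77 in siNTC and 1.58 and 2.02 in siNF45. These values lie close to the dim end of the tested range, and siNF45 replicate 1 lies under the filter cut of 1.65. The difference was -0.995 (SE 0.18, limma adjusted p = 0.097).

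Somatostatin (Sst), the hormone gene in which the CRE was first defined, read 9.19 and 8.83 in siNTC and 8.18 and 8.07 in siNF45, a difference of -0.89 (SE 0.16, limma adjusted p = 0.103). Sst is also the defining marker of delta cells, and the other delta marker looked at, Hhex, was below the filter on all arrays (1.13 to 1.34). The 2 summed on the linear scale to 586.6 and 457.3 in siNTC and 292.3 and 270.9 in siNF45. Nearly all of each sum is Sst, so the sum is no separate view of delta-like cells. The part of such cells in the Sst value was not tested. The remaining 5 of the 9, named after their values were seen, were Fosl2 at -0.68, Fos at -0.55, Gem at -0.54, Arc at -0.52 and Pcsk1 at -0.44. Not all targets read lower. Dusp1, an immediate-early phosphatase gene, read 4.64 and 4.71 in siNTC and 4.91 and 4.92 in siNF45, and the cAMP phosphodiesterase genes Pde4b and Pde4d differed by 0.20 and 0.12, all 3 named after their values were seen. Of the 28 listed genes, tested or not, 22 had a promoter window, and these are not the same 22 as those tested. Of the genes with a window, 17 had at least 1 core and 6 had the full palindrome. Dusp1, Sst and the untested Areg were among the 6. Over all 27025 genes with a window, 23.0% had a core and 2.03% the palindrome.

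The clock genes around Per1 had a median of -0.15 over 14 tested of 17 listed, with 9 below 0 and 4 above, and none called. At an unadjusted p under 0.05, 2 were lower and 0 higher. Both counts are near the shares over all genes, 61.3% below 0 and 13.2% lower. The nuclear receptor Nr1d1 (REV-ERBα), a clock repressor, read 4.28 and 4.06 in siNTC and 2.98 and 2.47 in siNF45, a difference of -1.45 (SE 0.20, limma adjusted p = 0.079) and larger in size than that of Per1. Its paralogue Nr1d2 differed by -0.66 (SE 0.16, limma adjusted p = 0.150), Rora by -0.33 (SE 0.14), or -0.21 without siNF45 replicate 2, and Per3 by -0.22 (SE 0.12). Per2 did not enter the test.

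PGC-1α works with nuclear receptors and mitochondrial transcription factors, and 9 of 10 such listed genes were tested. Their median was -0.15, with 7 below 0 and 2 above, and none called. At an unadjusted p under 0.05, 0 were lower and 0 higher, beside 13.2% and 4.02% of all genes. The closest relative, Ppargc1b, read 2.25 and 2.11 in siNTC and 1.95 and 1.91 in siNF45, a difference of -0.25 (SE 0.12). Esrra, the receptor through which PGC-1α acts on mitochondrial genes, differed by -0.37 (SE 0.16), the mitochondrial DNA factor Tfam by -0.26 (SE 0.12) and the deacetylase Sirt1 by -0.24 (SE 0.17). The limma adjusted p of these 4 ran from 0.316 to 0.530. The control arrays of Esrra and Sirt1 were far apart, so that Esrra was at -0.185 without siNTC replicate 2 and -0.555 without siNTC replicate 1, and Sirt1 at -0.03 and -0.44.

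**Figure D4:**
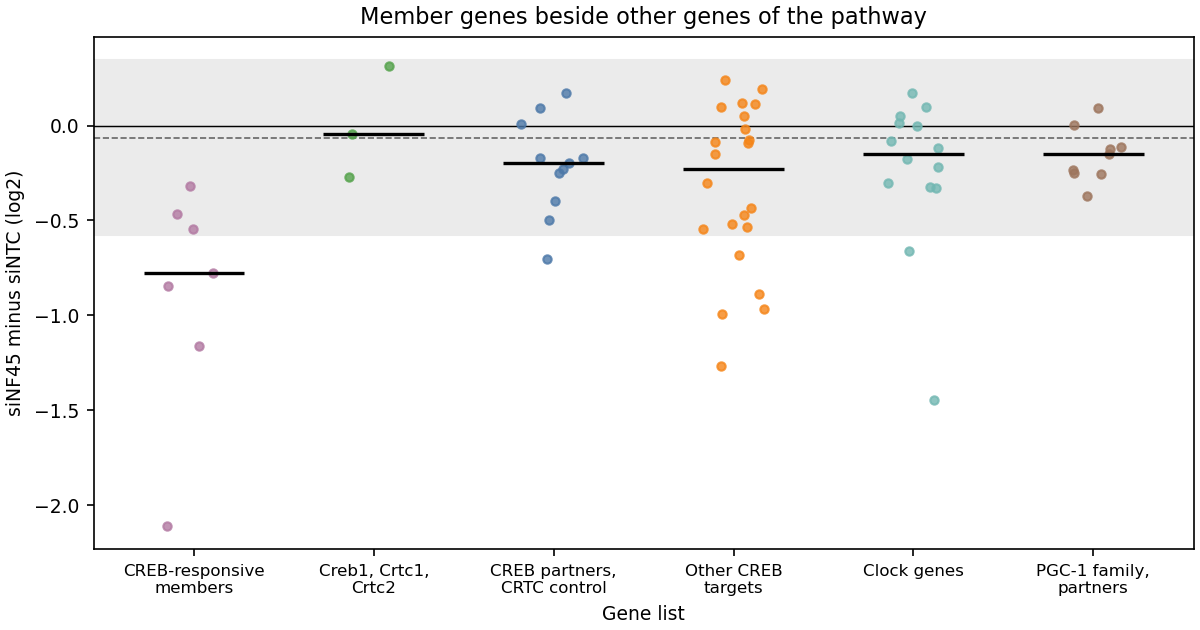
Difference siNF45 minus siNTC (log2, y axis) of each tested gene in the member groups and in 4 lists of pathway genes, with black bars for medians, a dashed line for the median of all tested genes and shading for their 5th to 95th percentiles. Medians are -0.78 for the CREB-responsive members, -0.045 for the regulators and -0.23 for the other CREB targets.

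The rule for likeness took the member ranked first in the fit, which was Sik1. The genes whose 4 values moved most like those of Sik1, by Euclidean distance after subtracting each gene's mean over the 4 arrays, were Pcdh17 (distance 0.084), H4f16 (0.108), Tgfb2 (0.112), Oxtr (0.163) and Rhou (0.166). Their differences ran from -1.20 to -1.07, against -1.16 for Sik1. Pcdh17 encodes a protocadherin, Tgfb2 a transforming growth factor, Oxtr the oxytocin receptor and Rhou a small GTPase, while H4f16 is a histone H4 gene whose probes may also read its near-identical copies. With 4 arrays in 2 groups this likeness is mostly the size of the difference.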

How the data were processed

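Labelled DNA made from total RNA (250 ng per sample) of 4 Beta-TC-6 samples was hybridised to Affymetrix Mouse Gene 2.1 ST arrays. Per the submitters' processing notes, the authors made the deposited values, read here as log2 values, with Transcriptome Analysis Console. There is 1 value for each probe set on each array. Version, algorithm and background handling were not given in the sources used here. A log base of 2 was taken from the values (0.12 to 12.21, uncentred, array medians 1.64 to 1.66), and folds rest on it. No detection calls or intensities were used here, so the number of arrays limits the precision.

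Of 41345 probe sets, 23521 had 1 gene symbol in the platform annotation. Those whose 4-array mean reached the median probe set (1.65) were kept, and the brightest per gene, leaving 11742 genes. The test was limma 3.58.1 under R 4.3.3 (lmFit, eBayes, no covariate; 2 residual and 3.69 prior degrees of freedom) with Benjamini-Hochberg adjustment at 0.05. The script was tested on simulated data. Pathway lists were named by their 4 smallest p, and likeness by distance to the member with the smallest p. Members, lists and rules were chosen with earlier results of these data known. Promoter windows were searched on both strands.

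Alternatives were filters, scaling, eBayes options, a replicate block, averaged probe sets, an unmoderated test, an adjusted threshold of 0.10 and leaving out each array. Replicate numbers were not taken to pair samples.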

Additional observations from a re-analysis of the deposited data

How the results depend on the processing

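The 7 CREB-responsive members stayed below 0 in all alternatives in which they were tested (5 of them under the 70th percentile filter, which Nr4a3 and Crem did not reach). Their median difference of -0.78 went to -0.65 with arrays centred on the tested genes and lay between -0.79 and -0.59 when 1 array was left out, at -0.62 without siNTC replicate 1 and -0.59 without siNF45 replicate 2. Creb1 turned from -0.045 to 0.012 after quantile normalization and to 0.085 after centring, and ranged from -0.155 to 0.065 without 1 array. Genes called numbered 10 as deposited (9 lower), 87 at the 70th percentile filter (70 lower), 62 after quantile normalization (44 lower), 172 after centring (101 lower), 174 with an eBayes trend (134 lower) and 190 at an adjusted p under 0.10; centring and quantile normalization moved the median of all genes from -0.065 to 0.065 and -0.019. Among the calls were Nr4a1 and Sik1 in each of these 5 alternatives, and Ppargc1a at the 70th percentile filter and at the threshold of 0.10. Genes tested numbered 7977 at the 70th percentile filter and 11742 in the others. The calls of members come from the contrast that chose them, and nothing is read from them. The unmoderated test and the replicate block called 0 genes (1356 and 1909 at an unadjusted p under 0.05), as did each fit without 1 array (1236 to 1670). With the replicate block Ilf2 stayed at -2.17 (limma adjusted p = 0.258), as in the unmoderated test (adjusted p = 0.328), and it ranged from -2.26 to -2.07 without 1 array (limma adjusted p = 0.307 to 0.471), where the lone array's spread is borrowed from the other group. Deviations of same-numbered arrays correlated at 0.0062 over genes, which does not settle pairing. The cause of the changes in call counts was not tested. For the pathway and likeness genes named, all 270 alternative values had the sign of the main one. No member had another single-symbol probe set to compare.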
